A study of Homo sapiens with 12 samples.

Results

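The question taken up here was which microRNAs answered SAHA differently in AGS and in HGC-27, both established human gastric cancer cell lines. AGS derives from a gastric adenocarcinoma and HGC-27 from a lymph node metastasis of an undifferentiated gastric carcinoma. SAHA (vorinostat) blocks histone deacetylases, the enzymes that take acetyl groups off histones. The 4 groups were AGS with 5 µM SAHA, AGS with the solvent DMSO, HGC-27 with 5 µM SAHA and HGC-27 with DMSO. Each was exposed for 24 h, in medium with fetal bovine serum, and held 3 replicates, so all 12 libraries entered. Each line stands for 1 tumour, so what separates AGS from HGC-27 cannot be told apart from what separates any 2 cell lines. The labels number the replicates without saying whether each was its own culture; p-values therefore measure the spread between these libraries only, which may be technical. The measure is the response in AGS (SAHA over DMSO, log2) minus the response in HGC-27. A positive value means that SAHA moved the microRNA further up, or less far down, in AGS. It was taken for every annotated mature microRNA, 1906 names out of 2909 entries of the count table. Of these, 608 had enough counts to be tested. Predicted entries without an annotated name were left out, and the hairpin with the highest count stood for a name listed under several hairpins.

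A microRNA gene is transcribed as a longer RNA that folds into a hairpin, and Drosha and Dicer cut a short duplex out of it. One strand of the duplex, the guide, is kept in an Argonaute protein and pairs with messenger RNAs mainly through its seed, the bases near its 5′ end. The other strand, the passenger, is mostly degraded. The 2 arms of a hairpin, and the members of a cluster cut from 1 transcript, share their transcription but can differ in how they are processed and how long they last.

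A difference of response was called for 11 microRNAs. Their mature sequences (RefSeq, on GRCh38.p14) are printed to show which of them share a seed with each other or with a relative named below. Capitals mark bases 2 to 8, the seed, counted from the 5′ end.
miR-7-5p: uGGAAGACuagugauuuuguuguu
miR-195-3p: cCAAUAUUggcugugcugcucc
miR-216b-5p: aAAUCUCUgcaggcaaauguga
miR-27a-5p: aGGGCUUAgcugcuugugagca
miR-19a-3p: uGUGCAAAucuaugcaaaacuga
miR-1247-3p: cCCCGGGAacgucgagacuggagc
miR-1247-5p: aCCCGUCCcguucguccccgga
miR-135b-3p: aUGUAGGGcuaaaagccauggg
miR-30a-3p: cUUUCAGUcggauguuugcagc
miR-516a-5p: uUCUCGAGgaaagaagcacuuuc
miR-676-3p: cUGUCCUAagguuguugaguu
No seed occurs more than once among the 11. The relatives with which some of them share a seed, a hairpin or a transcript are these.
miR-19b-3p: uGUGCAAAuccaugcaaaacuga
miR-30e-3p: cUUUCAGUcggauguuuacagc
miR-195-5p: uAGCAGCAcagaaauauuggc
miR-497-5p: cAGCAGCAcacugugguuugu
miR-7-1-3p: cAACAAAUcacagucugccaua
miR-27a-3p: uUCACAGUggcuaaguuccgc
miR-135b-5p: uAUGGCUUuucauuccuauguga

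Most microRNAs responded with the same sign in both lines, and a difference was called for few. It was called for 11 of 608 (1.81%) at a Benjamini-Hochberg adjusted p under 0.05 in edgeR's quasi-likelihood test. It was positive for 6 (0.987%) and negative for 5 (0.822%). An unadjusted p under 0.05 was found for 109 (17.9%). For comparison, the response was called for 161 microRNAs in AGS (26.5%), 91 of them higher (15%) and 70 lower (11.5%) with SAHA. In HGC-27 it was called for 248 (40.8%), 132 higher (21.7%) and 116 lower (19.1%). These counts of calls differ between the lines, but a call in one line and none in the other does not show that the responses differ. Of the 119 microRNAs called in both lines, which are 73.9% of the AGS calls and 48.0% of the HGC-27 calls, 117 changed in the same direction and 2 in opposite directions. Across the 608 microRNAs the responses had a Pearson r of 0.76 and a Spearman rho of 0.70, as a description of microRNAs that share the same libraries. The sign was shared by 456 (75.0%).

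The precision set how small a difference could be seen. The median standard error of the difference was 0.35 on the log2 scale, and the median 95% interval reached 0.77 to either side of the value. Of the 581 microRNAs with counts in all 4 groups, the interval stayed within plus or minus 1 for 245 (42.2%). For 4 it lay wholly beyond, 3 of them with a called difference. For the other 332 it included plus 1 or minus 1, so a difference of 2-fold or more could neither be shown nor be set aside there. The median response of all microRNAs was 0.08 in each line with TMM scaling; with plain library totals it was 0.26 in AGS and 0.19 in HGC-27. The median difference was -0.03 with TMM and 0.05 with plain totals.

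**Figure D1:**
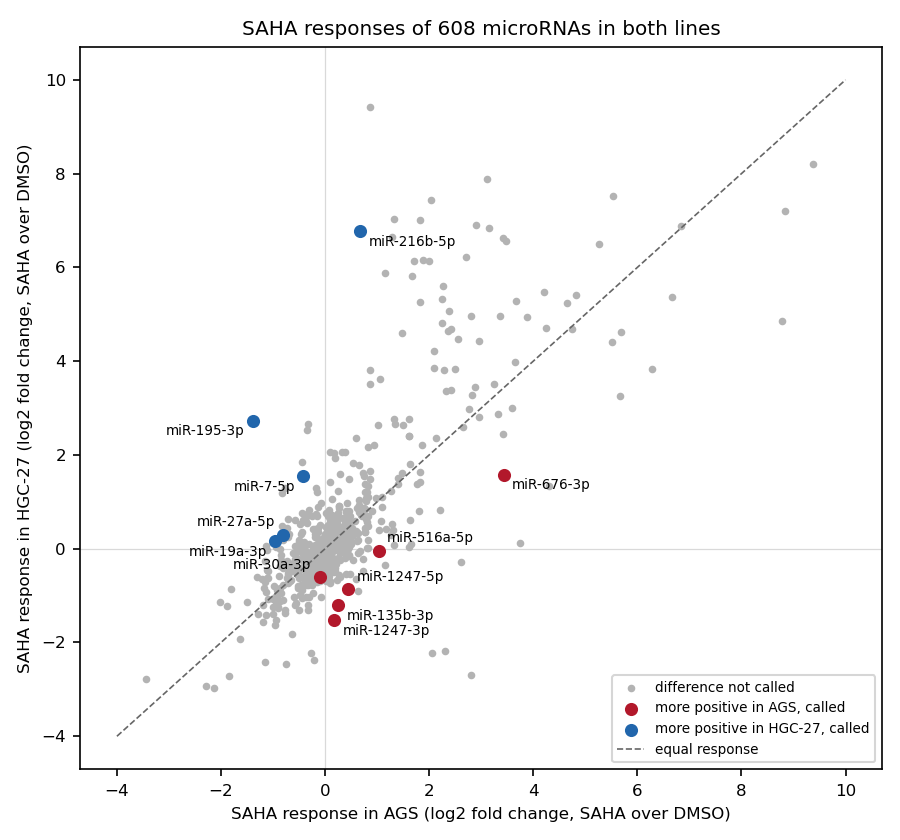
The SAHA response of each of 608 microRNAs in AGS (horizontal axis) and in HGC-27 (vertical axis), as log2 fold changes of SAHA over DMSO, with the line of equal response dashed. Most points lie near the dashed line (r 0.76), and the 11 coloured points are those with a called difference.

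The libraries held total counts of 2665109 to 6525388 and listed 735 to 940 annotated microRNAs each. The epithelial miR-200 family was present in both lines, with summed levels of 382 to 572 CPM in AGS SAHA, 234 to 756 in AGS DMSO, 467 to 559 in HGC-27 SAHA and 332 to 650 in HGC-27 DMSO. HGC-27 SAHA 2 stood apart. On the third principal component, with 8.47% of the variance, it lay at -13.9, and the next lowest were AGS DMSO 2 at -6.98 and HGC-27 DMSO 1 at -4.66. Its mean correlation with the other libraries of its group was 0.945, the lowest of the 12. Summed microRNAs of the DLK1-DIO3 cluster reached 3855 CPM in it, against 144 and 205 CPM in the other two HGC-27 SAHA libraries. Summed neuron markers reached 11259 CPM, against 3595 and 3451 CPM. Results that rest on this library are given with and without it. Levels below are CPM after TMM scaling, in the order of the replicate numbers, and each ± is the standard error of a log2 value from 3 libraries a group.

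In miR-7-5p and miR-195-3p the lines moved in opposite directions. In bulk libraries a change in some of the cells and a change in the level per cell cannot be told apart, here or below. miR-7-5p, known as a repressor of the EGF receptor messenger RNA and as the microRNA bound by the circular RNA CDR1as, was the clearest case. It had 16438, 15353 and 17128 CPM in AGS SAHA, against 22354, 17849 and 25101 CPM in AGS DMSO. Its HGC-27 levels were 49905, 49312 and 54584 CPM with SAHA, against 14500, 19893 and 18661 CPM with DMSO. The 3 HGC-27 SAHA libraries lay above every other library, and in AGS the SAHA libraries lay below the DMSO libraries. The AGS response was -0.42 ± 0.14 (adjusted p 0.0468) and the HGC-27 response 1.54 ± 0.14 (adjusted p 2.57e-05), both on the log2 scale. Their difference was -1.95 ± 0.20 (95% interval -2.38 to -1.52, adjusted p 0.000582), so the fold in AGS was 0.258 of that in HGC-27. The fall in AGS depends on the scaling: with plain totals it was -0.23 (adjusted p 0.199), and 11 of 22 alternatives called it. The rise in HGC-27 and the difference were called in all 22.

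The opposite arm did not show this. miR-7-1-3p, cut from the miR-7-1 hairpin, had 114, 126 and 126 CPM in AGS SAHA, against 222, 169 and 148 in AGS DMSO. HGC-27 libraries gave 95.9, 81.8 and 96.8 CPM with SAHA, against 123, 108 and 131 with DMSO. Its response was -0.56 ± 0.15 in AGS (adjusted p 0.0219) and -0.40 ± 0.15 in HGC-27 (adjusted p 0.0587), with a difference of -0.16 (interval -0.63 to 0.32). The mature miR-7-5p is listed under 3 hairpins. mir-7-1 carried 1101816 counts, mir-7-2 1063604 and mir-7-3 1063461, or 96.5% of the first for each of the others, so the reads are shared and the table does not say which locus they came from. RefSeq places miR-7-5p at chr9:83969811-83969834 on the minus strand, where it overlaps an exon of at least 1 HNRNPK transcript, and at chr19:4770700-4770723 on the plus strand, in an intron of MIR7-3HG.

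miR-195-3p, the passenger of a hairpin whose guide shares the miR-15 and miR-16 seed, also moved in opposite directions, at low counts. Its raw counts were 10, 11 and 26 in AGS SAHA, against 55, 50 and 21 in AGS DMSO. They were 25, 16 and 30 in HGC-27 SAHA, against 2, 7 and 4 in HGC-27 DMSO. In CPM these are 4.02, 3.54 and 8.47 against 15.3, 16.7 and 9.83 in AGS, and 7.81, 5.74 and 6.80 against 0.491, 1.76 and 0.771 in HGC-27. The groups did not overlap in either line. The response was -1.38 ± 0.43 in AGS (adjusted p 0.0378) and 2.73 ± 0.50 in HGC-27 (adjusted p 0.00135). The difference was -4.11 ± 0.66 (interval -5.56 to -2.65, adjusted p 0.01). The AGS call was held in 13 of 22 alternatives, and the HGC-27 call in all 22.

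The locus, at chr17:7017628-7017649 on the minus strand in an exon of MIR497HG, also gives miR-195-5p and miR-497-5p, which carry the same AGCAGCA seed. Both had differences of the same sign that were not called, -2.07 ± 0.78 for miR-195-5p (adjusted p 0.193) and -2.30 ± 0.55 for miR-497-5p (adjusted p 0.0664). The value for miR-195-5p rests in part on HGC-27 SAHA 2: it had 4.69, 24.8 and 7.70 CPM in HGC-27 SAHA, against 6.87, 3.52 and 4.63 CPM in HGC-27 DMSO, and its difference was -1.17 (adjusted p 0.332) without that library. miR-497-5p had 5.62, 6.75 and 8.14 CPM in AGS SAHA, against 9.75, 10.7 and 7.49 in AGS DMSO. In HGC-27 it had 5.94, 8.97 and 4.08 CPM with SAHA, against 1.72, 2.51 and 0.964 with DMSO, a rise of 1.85 ± 0.41 (adjusted p 0.0044). Without HGC-27 SAHA 2 the difference of miR-497-5p was -2.03 (adjusted p 0.0946). The more abundant microRNAs of the miR-15 and miR-16 group had positive differences that were not called. miR-16-2-3p differed by 0.58 ± 0.17 (adjusted p 0.111) and miR-15b-5p by 0.52 ± 0.17 (adjusted p 0.145). miR-16-5p differed by 0.16 ± 0.27 (adjusted p 0.826).

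**Figure D2:**
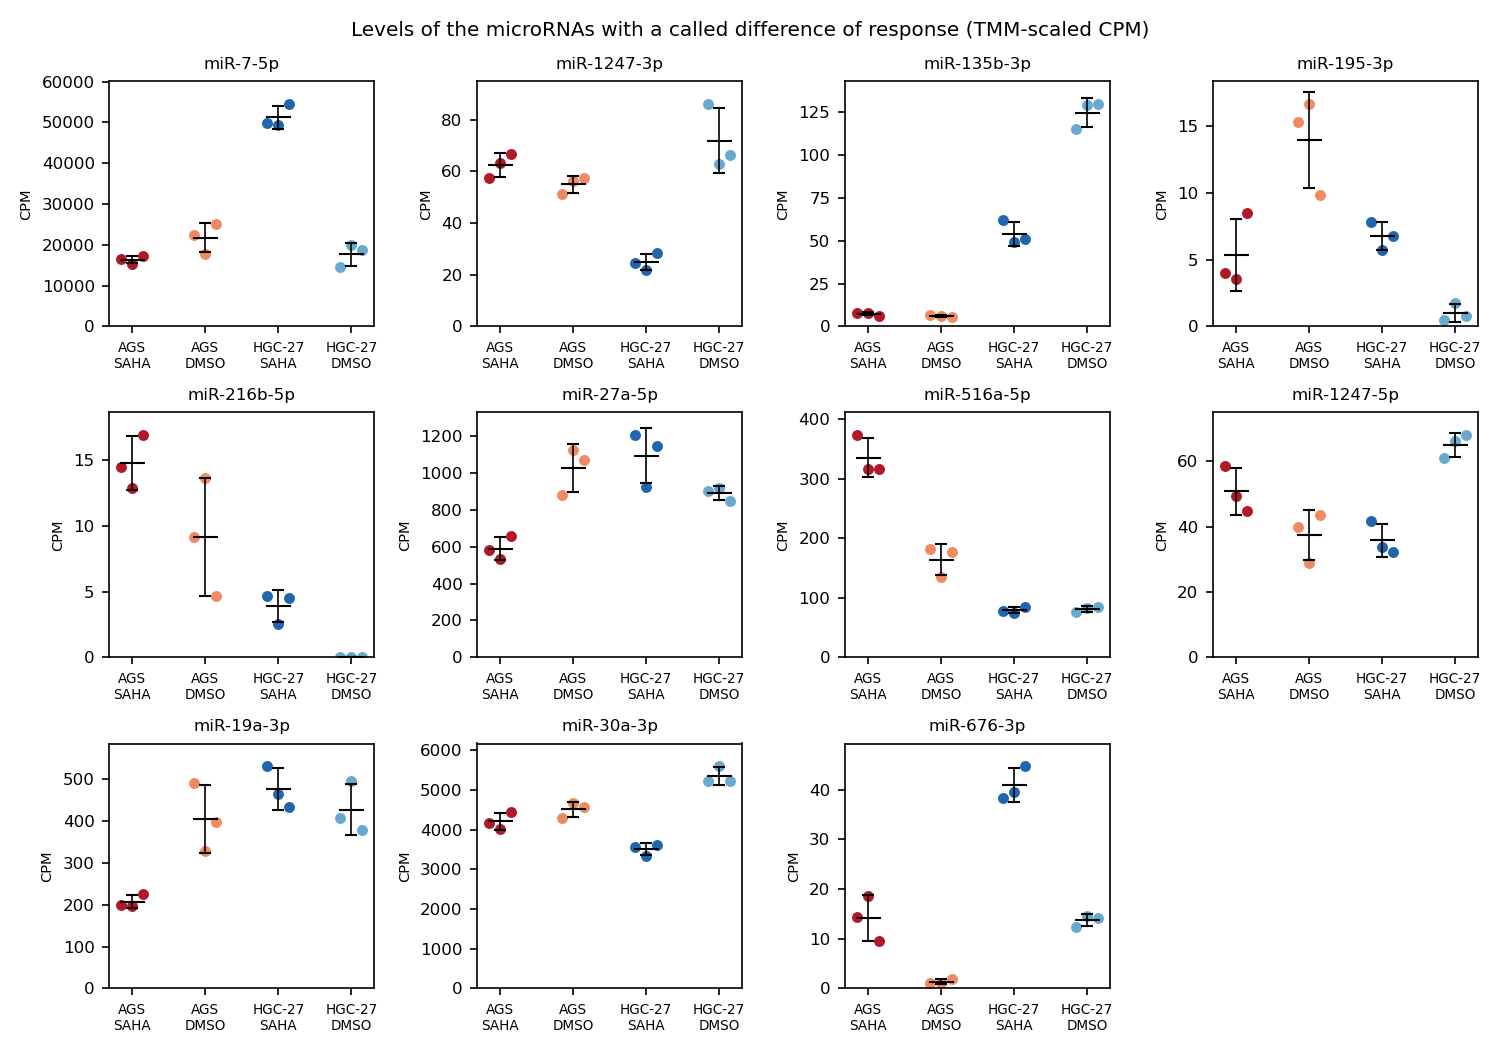
TMM-scaled CPM of the 11 microRNAs with a called difference, 1 panel each with its own axis from 0. Points are the 3 libraries of AGS SAHA, AGS DMSO, HGC-27 SAHA and HGC-27 DMSO, and bars are the mean and SD; miR-7-5p is highest in the 3 HGC-27 SAHA libraries, and miR-216b-5p is listed at 0 in all 3 HGC-27 DMSO libraries.

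In 4 microRNAs, from 3 hairpins, SAHA lowered the level in HGC-27 and no response was called in AGS. Both arms of miR-1247 were among them. This microRNA lies at chr14:101560326-101560349 (3p arm) and chr14:101560362-101560383 (5p arm), on the minus strand in an exon of DIO3OS, the antisense transcript at the DIO3 end of the imprinted DLK1-DIO3 region. miR-1247-3p had 57.4, 63.3 and 66.8 CPM in AGS SAHA, against 51.2, 56.3 and 57.6 in AGS DMSO. Its HGC-27 levels were 24.4, 21.9 and 28.3 CPM with SAHA, against 86.2, 63.0 and 66.5 with DMSO. The 3 HGC-27 SAHA libraries were the lowest of the 12, and the AGS groups overlapped. The response was 0.18 ± 0.15 in AGS (adjusted p 0.425) and -1.53 ± 0.15 in HGC-27 (adjusted p 4.22e-05), and the difference 1.71 ± 0.22 (interval 1.23 to 2.19, adjusted p 0.00271).

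miR-1247-5p had 58.6, 49.2 and 44.6 CPM in AGS SAHA, against 39.8, 28.98 and 43.5 in AGS DMSO. HGC-27 libraries gave 41.6, 33.7 and 32.2 CPM with SAHA, against 60.9, 66.1 and 68.1 with DMSO. In each line the treated and untreated libraries were apart. The response was 0.44 ± 0.18 in AGS (adjusted p 0.104) and -0.86 ± 0.18 in HGC-27 (adjusted p 0.00323). The difference of 1.30 ± 0.25 (interval 0.74 to 1.86, adjusted p 0.0263) was called in only 4 of the 12 fits that left out 1 library, those lacking 1 of AGS SAHA 2, AGS SAHA 3, AGS DMSO 3 and HGC-27 SAHA 1. Without HGC-27 SAHA 2 it was 1.20 (adjusted p 0.078). With plain totals the AGS rise was called as well, at 0.63 (adjusted p 0.0289).

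miR-135b, reported to target the tumour suppressor APC in colorectal cancer, lies in an intron of LEMD1. In HGC-27 a response was called for miR-135b-3p and not for the guide of the hairpin. The arms were not tested against each other. The 3p arm (chr1:205448323-205448344, minus strand) had 8.03, 7.72 and 6.19 CPM in AGS SAHA, against 6.68, 5.996 and 5.62 in AGS DMSO. In HGC-27 miR-135b-3p had 62.2, 49.2 and 51.2 CPM with SAHA, against 115, 129 and 130 with DMSO. The HGC-27 groups lay far apart, while in AGS the level was low and the groups overlapped. The response was 0.25 ± 0.27 in AGS (adjusted p 0.54) and -1.20 ± 0.14 in HGC-27 (adjusted p 0.00012), and the difference 1.45 ± 0.28 (interval 0.84 to 2.07, adjusted p 0.00827). The guide, miR-135b-5p, had 515, 390 and 415 CPM in HGC-27 SAHA, against 436, 453 and 330 CPM in HGC-27 DMSO, with overlap. Its difference was -0.17 ± 0.33 (interval -0.89 to 0.55).

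miR-30a-3p, from an intron of LINC00472 at chr6:71403554-71403575 on the minus strand, had the smallest called difference. It had 4170, 4023 and 4438 CPM in AGS SAHA, against 4301, 4674 and 4568 in AGS DMSO. In HGC-27 it had 3561, 3345 and 3625 CPM with SAHA, against 5236, 5614 and 5222 with DMSO. The AGS groups overlapped and the HGC-27 groups did not. The response was -0.10 ± 0.07 in AGS (adjusted p 0.355) and -0.61 ± 0.07 in HGC-27 (adjusted p 0.000129), and the difference 0.51 ± 0.10 (interval 0.28 to 0.74, adjusted p 0.0288). This call was held in 1 of the 12 fits without a library, the one without AGS SAHA 2, and the adjusted p was 0.172 without HGC-27 SAHA 2. The guide of the hairpin, miR-30a-5p, differed by 0.47 ± 0.17 (adjusted p 0.188) and the clustered miR-30c-2-3p by 0.70 ± 0.23 (adjusted p 0.145). miR-30e-3p, with the same UUUCAGU seed but another host gene (NFYC), fell in both lines, by -0.34 in AGS and -0.39 in HGC-27, with a difference of 0.05 (interval -0.20 to 0.30).

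miR-216b-5p rose in HGC-27 from an unlisted level. It lies at chr2:56000764-56000785 on the minus strand in an intron of MIR217HG, a locus best known from the exocrine pancreas. Its counts were 36, 40 and 52 in AGS SAHA, against 33, 41 and 10 in AGS DMSO. They were 15, 7 and 20 in HGC-27 SAHA, against 0 in all 3 HGC-27 DMSO libraries. The AGS groups overlapped in CPM, and each HGC-27 SAHA library held counts. With a floor of 3 counts per library for HGC-27 DMSO, or 0.690 CPM on average, the mean level in HGC-27 SAHA was 5.67-fold that floor. In AGS the ratio of means was 1.61, and the response was 0.67 ± 0.40 (adjusted p 0.274). The fitted difference was -6.10 (adjusted p 0.0105), a value that depends on how the 0 counts are treated and is no bound. The floor covers counting error in the DMSO libraries only, and the counting error of the SAHA libraries is not in the fold. miR-217, from the same transcript, rose in both lines, by 1.41 ± 0.21 in AGS (adjusted p 0.000725) and 1.39 ± 0.32 in HGC-27 (adjusted p 0.000935). Its difference was 0.02 (interval -0.76 to 0.79).

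In 3 microRNAs SAHA changed the level in AGS with no call in HGC-27 under TMM scaling of all 12 libraries. miR-27a-5p, the passenger of the miR-27a hairpin (chr19:13836487-13836508, minus strand, exon of AC020916.1), had 581, 533 and 656 CPM in AGS SAHA, against 883, 1127 and 1072 in AGS DMSO. Its HGC-27 levels were 1208, 927 and 1149 CPM with SAHA, against 905, 920 and 849 with DMSO. The treated AGS libraries were the lowest of the 12, and the HGC-27 groups were close without overlap. The response was -0.80 ± 0.13 in AGS (adjusted p 0.00132) and 0.30 ± 0.13 in HGC-27 (adjusted p 0.0946), and the difference -1.10 ± 0.18 (interval -1.50 to -0.69, adjusted p 0.0105). The HGC-27 response was called as a rise in 7 of 22 alternatives, among them plain totals (0.41, adjusted p 0.0183), DESeq2 (0.29, adjusted p 0.0492) and the fit without HGC-27 SAHA 2 (0.44, adjusted p 0.0272), where the difference was -1.26. The guide, miR-27a-3p, which has been studied as a growth-promoting microRNA in gastric cancer, responded by 0.19 ± 0.11 in AGS (adjusted p 0.227) and 0.34 ± 0.11 in HGC-27 (adjusted p 0.024), with a difference of -0.15 ± 0.15 (interval -0.48 to 0.18). Its cluster mates differed by 0.49 ± 0.18 (miR-23a-3p, adjusted p 0.193) and -0.27 ± 0.17 (miR-24-3p, adjusted p 0.433).

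miR-19a-3p, a member of the miR-17 to miR-92a cluster, had 200, 198 and 225 CPM in AGS SAHA, against 490, 328 and 397 in AGS DMSO. HGC-27 libraries gave 533, 466 and 434 CPM with SAHA, against 408, 495 and 379 with DMSO. The AGS groups were apart and the HGC-27 groups overlapped. The response was -0.96 ± 0.16 in AGS (adjusted p 0.00135) and 0.16 ± 0.16 in HGC-27 (adjusted p 0.447). The difference was -1.13 ± 0.22 (interval -1.61 to -0.64, adjusted p 0.0263). It was not called when HGC-27 DMSO 1, HGC-27 SAHA 1 or AGS SAHA 2 was left out (adjusted p up to 0.0789).

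That cluster is transcribed as MIR17HG from chromosome 13 (miR-19a-3p at chr13:91350939-91350961, plus strand). Of its 10 other tested arms, 8 fell in AGS and 8 in HGC-27, against 11.5% and 19.1% of all 608 microRNAs; with plain totals 6 fell in each line. miR-17-5p responded by -0.93 ± 0.15 in AGS and -0.89 ± 0.15 in HGC-27, and miR-20a-5p by -0.91 ± 0.15 and -0.94 ± 0.15. Their differences were -0.04 (interval -0.50 to 0.42) and 0.03 (interval -0.46 to 0.51). Some other arms of the cluster had larger differences, of both signs, and none was called. Those of miR-19b-1-5p and miR-18a-5p were -0.89 ± 0.40 (adjusted p 0.277) and -0.43 ± 0.30 (adjusted p 0.489). Those of miR-92a-1-5p and miR-92a-3p were 0.65 ± 0.38 (adjusted p 0.402) and 0.36 ± 0.17 (adjusted p 0.308). The cluster and its paralogs had 28 names in the table and 21 tested, of which 13 fell and 1 rose in AGS, and 16 fell and 1 rose in HGC-27. With plain totals 7 fell in AGS and 10 in HGC-27. miR-19b-3p has the seed of miR-19a-3p. It responded by -0.71 ± 0.17 in AGS (adjusted p 0.0111) and -0.51 ± 0.17 in HGC-27 (adjusted p 0.0314), with a difference of -0.20 (interval -0.72 to 0.32). How reads matching miR-19a and miR-19b alike were assigned is not given in the sources used here.

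miR-516a-5p belongs to the primate-specific chromosome 19 cluster, known for expression in the placenta. It had 374, 316 and 316 CPM in AGS SAHA, against 181, 134 and 176 in AGS DMSO. In HGC-27 it had 78.4, 74.3 and 83.8 CPM with SAHA, against 75.6, 82.6 and 85.1 with DMSO. The AGS groups were apart and the HGC-27 groups overlapped. The response was 1.03 ± 0.13 in AGS (adjusted p 0.000273) and -0.04 ± 0.13 in HGC-27 (adjusted p 0.846), and the difference 1.07 ± 0.18 (interval 0.67 to 1.48, adjusted p 0.0112). The call was lost when AGS SAHA 1, HGC-27 DMSO 2, HGC-27 DMSO 3 or HGC-27 SAHA 2 was left out; in the last case the value was 0.97 (adjusted p 0.0634). Its 2 hairpins, at chr19:53756756-53756778 and chr19:53761148-53761170 on the plus strand, hold the same 6219 counts, so the loci cannot be separated. Of 59 names of this cluster in the table, 6 were tested; miR-519a-3p differed by 0.71 ± 0.39 (adjusted p 0.377), miR-519a-5p by 0.16 ± 0.33 (adjusted p 0.856) and miR-1283 by -0.10 ± 0.28 (adjusted p 0.882). miR-516b-5p had 37.8, 6.43 and 72.3 CPM in AGS SAHA, against 3.06, 0 and 0.936 CPM in AGS DMSO, a rise of 4.75 ± 1.18 (adjusted p 0.0196). The HGC-27 libraries held 0.625, 0 and 1.81 CPM with SAHA, against 0 in all 3 DMSO libraries, which was not called (adjusted p 0.132). Its fitted difference of 0.07 (adjusted p 0.849) is set against a group at 0 and is no bound.

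miR-676-3p, in an intron of EDA (chrX:70022899-70022919, plus strand), was the one called microRNA that rose in both lines. Its counts were 36, 58 and 29 in AGS SAHA, against 4, 3 and 4 in AGS DMSO. They were 123, 110 and 198 in HGC-27 SAHA, against 50, 58 and 74 in HGC-27 DMSO. In CPM these are 14.5, 18.7 and 9.44 against 1.11, 0.999 and 1.87 in AGS, and 38.4, 39.5 and 44.9 against 12.3, 14.6 and 14.3 in HGC-27. The treated libraries were higher in each line. The response was 3.43 ± 0.45 in AGS (adjusted p 6.95e-05) and 1.58 ± 0.26 in HGC-27 (adjusted p 0.000929), and the difference 1.85 ± 0.47 (interval 0.82 to 2.88, adjusted p 0.0472). Of the 12 fits without a library, 2 called it, those without AGS SAHA 3 or AGS DMSO 3. Without HGC-27 SAHA 2 it was 1.78 (adjusted p 0.0946).

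**Figure D3:**
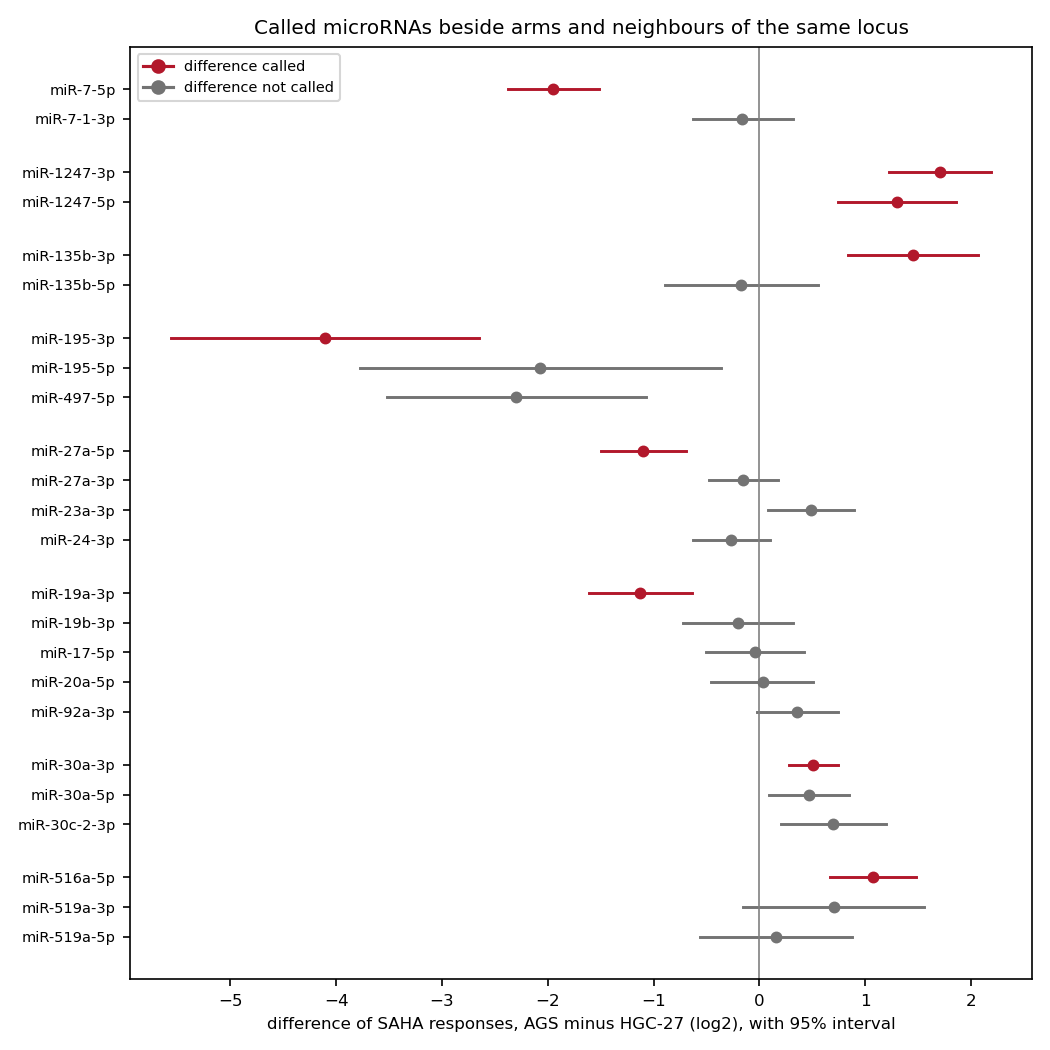
Differences of the SAHA responses (AGS minus HGC-27, log2) with 95% intervals for called microRNAs (red) and for arms or neighbours of the same locus (grey). miR-7-5p, miR-135b-3p and miR-19a-3p stand away from 0 beside partners whose intervals include it, while the arms of miR-1247 lie close to each other. Beside miR-27a-5p, the intervals of miR-27a-3p and miR-24-3p include 0, and that of miR-23a-3p (0.08 to 0.89) lies above it.

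For miR-7-5p, miR-135b-3p, miR-27a-5p, miR-19a-3p, miR-216b-5p and miR-516a-5p, an arm or neighbour of the same locus named above had an interval that included 0. Whether each called microRNA differed from its own partner was not tested. The 11 called microRNAs had mean levels over all libraries of 6.77 to 26756 CPM. Of them, miR-7-5p, miR-1247-3p, miR-135b-3p, miR-195-3p, miR-216b-5p and miR-27a-5p were called in each of the 12 fits that left out 1 library.

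**Figure D4:**
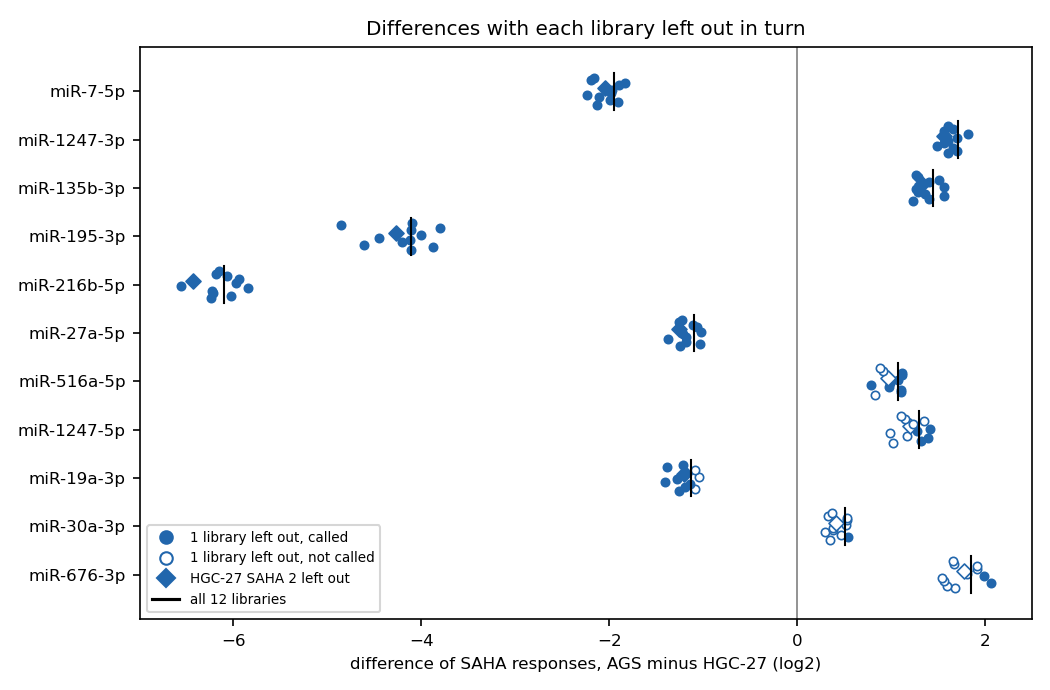
The difference of the SAHA responses (AGS minus HGC-27, log2) for each called microRNA with 1 library left out at a time. Filled points are called and open points are not, diamonds leave out HGC-27 SAHA 2, and the black bar is the value from all 12 libraries; the upper 6 microRNAs were called in each fit, and no point crosses 0.

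Just outside the threshold stood miR-514a-3p, miR-190b, miR-493-5p and miR-497-5p, each at an adjusted p of 0.0664, while miR-676-3p stood just inside it at 0.0472. These near values and the partners above were chosen after their values were seen. miR-190b had 14.1, 19.6 and 16.3 CPM in AGS SAHA, against 12.8, 12.3 and 15.0 in AGS DMSO. Its HGC-27 levels were 8.44, 6.82 and 4.08 CPM with SAHA, against 1.23, 1.76 and 1.54 with DMSO, and the difference was -1.74 ± 0.42. miR-514a-3p and miR-493-5p were at 0 in all 3 HGC-27 DMSO libraries. Their mean levels in HGC-27 SAHA were 5.25-fold and 6.99-fold the floor of 3 counts per library, and the ratios of means in AGS were 2.45 and 2.60. miR-493-5p had 4.06, 7.90 and 2.49 CPM in HGC-27 SAHA, and without HGC-27 SAHA 2 its mean was 4.75-fold the floor. miR-139-5p rose in both lines, by 1.32 ± 0.26 in AGS and 2.76 ± 0.25 in HGC-27, with a difference of -1.43 ± 0.36 (adjusted p 0.0814). It had 526, 910 and 431 CPM in HGC-27 SAHA, and without HGC-27 SAHA 2 its difference was -1.11 (adjusted p 0.0634).

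No difference was called among the 5 highest-level microRNAs, which include miR-30a-5p. miR-21-5p, widely raised in tumours, differed by -0.04 (interval -0.37 to 0.28) and let-7i-5p by 0.03 (interval -0.27 to 0.34). miR-148a-3p differed by -0.32 with an interval of -1.57 to 0.94. miR-100-5p had 70466, 57999 and 53410 CPM in AGS SAHA, against 53767, 56680 and 69701 in AGS DMSO. HGC-27 libraries gave 23690, 22074 and 24419 CPM with SAHA, against 33273, 36678 and 34021 with DMSO. The HGC-27 fall of -0.57 ± 0.12 was called (adjusted p 0.00367), and the difference of 0.58 ± 0.17 was not (adjusted p 0.111).

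Among families, gut epithelial miR-192 with miR-194 and miR-215 had a median difference of -1.22 over 4 tested members of 6 in the table, against -0.03 over all 608 microRNAs, and -1.29 without HGC-27 SAHA 2. No member was called in edgeR, and DESeq2 called 2. An unadjusted p under 0.05 was found for 3 members, against 17.9% of all 608. In AGS 1 member rose and in HGC-27 3 did, against 15% and 21.7% of all 608. Without the 3 libraries lowest on the third component all 4 tested members rose in each line, and the median AGS response was 1.27, against 0.47 with all libraries. That fit, chosen after the data were seen, leaves out the DMSO library with the highest sum of these microRNAs in each line. The sums were 7300 CPM in AGS DMSO 2, against 2703 and 3076 CPM, and 2114 CPM in HGC-27 DMSO 1, against 1415 and 1236 CPM. The rises in that fit are thus partly set by the choice of libraries. miR-192-5p had 4894, 4517 and 5655 CPM in AGS SAHA, against 2336, 6446 and 2700 in AGS DMSO, with overlap because of AGS DMSO 2. In HGC-27 it had 5582, 5659 and 5781 CPM with SAHA, against 1734, 1269 and 1081 with DMSO, a rise of 2.06 ± 0.32 (adjusted p 0.00088). The difference was -1.67 ± 0.46 (adjusted p 0.0948). miR-194-5p, cotranscribed with it, differed by -1.28 ± 0.33 (adjusted p 0.0816), or -1.37 (adjusted p 0.0092) without the 3 libraries lowest on the third component. That second fit also lacks the DMSO library highest in miR-194-5p in each line, so it adds no separate support.

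miR-221 and miR-222, neighbours on the X chromosome that repress the cell cycle inhibitor p27, had positive differences in 4 of 4 arms, with a median of 0.48. No arm was called in edgeR or DESeq2, and all 4 had an unadjusted p under 0.05, against 17.9% of all 608 microRNAs. All 4 fell in HGC-27, against 19.1% of all 608. None was called in AGS, against 26.5%. With plain totals, 2 fell in HGC-27 and 1 rose in AGS. Without HGC-27 SAHA 2 the median difference was 0.41, and 2 arms fell in HGC-27. miR-222-3p had 4796, 4956 and 4731 CPM in AGS SAHA, against 4822, 4216 and 5361 in AGS DMSO. Its HGC-27 levels were 4233, 3840 and 4007 CPM with SAHA, against 5122, 5452 and 5855 with DMSO, and the difference was 0.45 ± 0.13 (adjusted p 0.111).

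miR-34 and its miR-449 relatives, a family that acts downstream of p53 and in ciliated cells, had 11 names in the table and 6 tested. In each line 3 rose and 1 fell. Of all 608 microRNAs, 15% rose and 11.5% fell in AGS, and 21.7% rose and 19.1% fell in HGC-27. Members scarce with DMSO could pass the count filter mainly through SAHA libraries. One such is miR-449a, with 0.557, 0 and 0 CPM in AGS DMSO and 2.46, 4.27 and 3.66 CPM in HGC-27 DMSO. The share of this family that rose is thus partly set by the filter. The median difference was 0.88. No member was called, while DESeq2 and the fit with plain totals each called 1. An unadjusted p under 0.05 was found for 2 members, against 17.9% of all 608. miR-449c-5p had 142, 126 and 154 CPM in AGS SAHA, against 2.79, 4.33 and 1.87 in AGS DMSO. HGC-27 libraries gave 298, 296 and 313 CPM with SAHA, against 12.03, 16.6 and 14.3 with DMSO. It rose by 5.51 ± 0.28 in AGS and 4.40 ± 0.18 in HGC-27, and the difference was 1.11 ± 0.30 (adjusted p 0.0835). miR-34a-5p, the most abundant member, fell in both lines, with a difference of -0.11 (interval -0.46 to 0.25).

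The let-7 family, of 20 tested members, had a median difference of 0.23 and no call in edgeR or DESeq2. An unadjusted p under 0.05 was found for 4 members. The share among all 608 microRNAs was 17.9%, to be set beside this count and those of the families below. Of miR-99 with miR-100 and miR-125, 11 members were tested; they had a median of 0.41, with no call in edgeR, 4 at an unadjusted p under 0.05 and 1 in DESeq2. The miR-200 family, of 6, had a median of -0.18, with no call in edgeR or DESeq2 and 0 at an unadjusted p under 0.05. The interval of miR-200b-3p ran from -1.76 to 1.20, so a sizeable difference would not have been detectable there.

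Several lists changed sign or size with single libraries. The imprinted DLK1-DIO3 cluster had 88 names in the table, 25 tested and a median difference of -2.12, but 0.47 without HGC-27 SAHA 2 and 1.04 without the 3 libraries lowest on the third component. In AGS, 7 of the 25 rose, against 15% of all 608 microRNAs. The count was 16 without HGC-27 SAHA 2, a fit that keeps every AGS library, and both lines share 1 estimate of the spread. It was 15 without the 3 libraries, which include AGS DMSO 2. The median AGS response of the cluster was 2.56 with all libraries. It was 2.54 without HGC-27 SAHA 2 and 3.34 without the 3 libraries. In HGC-27, 23 of the 25 rose, against 21.7% of all 608. The count was 13 without HGC-27 SAHA 2 and 9 without the 3 libraries. Members scarce with DMSO, such as miR-493-5p, could pass the count filter mainly through SAHA libraries. The share of the 25 that rose is thus partly set by the filter. The weight of 1 library can be seen in miR-381-3p. It had 110, 151 and 174 CPM in AGS SAHA, against 20.9, 50.6 and 18.7 in AGS DMSO. In HGC-27 it had 49.4, 1793 and 56.2 CPM with SAHA, against 13.5, 17.8 and 7.91 with DMSO. The high value belongs to HGC-27 SAHA 2, and the difference of -3.34 ± 1.58 was not called (adjusted p 0.306). No member of the cluster was called in edgeR or DESeq2, and 3 had an unadjusted p under 0.05, against 17.9% of all 608.

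Markers of other cell types also moved with single libraries, but not all with the same ones. Neuron markers (14 tested) had a median difference of -1.52. It was -0.41 without HGC-27 SAHA 2 and -0.25 without the 3 libraries lowest on the third component. Fibroblast and smooth muscle markers (8) had -0.70, with 0.41 and -0.57 in those 2 fits. Blood cell markers (8) had -0.49, with 0.24 and -0.61. Muscle and liver markers (5) had 4.29, with 3.93 and -0.37. Their sum was 663, 1205 and 197 CPM in AGS SAHA, against 221, 236 and 86.6 in AGS DMSO. In HGC-27 it was 98.4, 359 and 207 CPM with SAHA, against 1165, 52.0 and 37.2 with DMSO. No member of these lists was called in edgeR or DESeq2. An unadjusted p under 0.05 was found for 5 neuron markers, 0 fibroblast, 0 blood and 1 muscle or liver marker. The share among all 608 microRNAs was 17.9%. The part of these sums in the called differences was not tested.

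**Figure D5:**
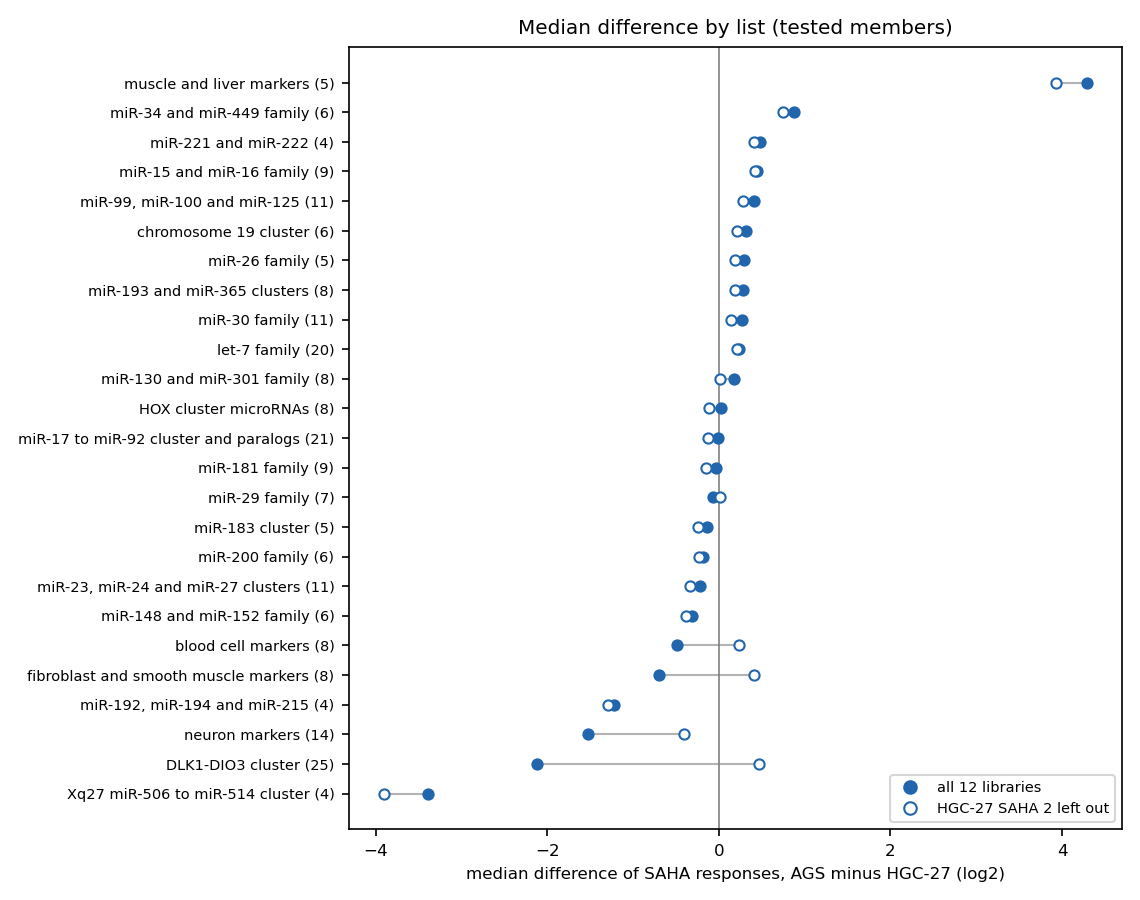
Median difference of the SAHA responses (AGS minus HGC-27, log2) for lists with 4 or more tested members, given in brackets, with all 12 libraries (filled) and without HGC-27 SAHA 2 (open). The DLK1-DIO3 cluster moves to 0.47 when that library is left out, while the list of miR-192 and its relatives stays close to its value.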

How the data were processed

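Per the labels' protocols, total RNA was isolated with TRIzol and turned into small RNA libraries with an NEBNext set. Novoalign 2.07.11 and cutadapt were used, per the submitters' processing notes. For the build, the microRNA database release and the counting rule: not given in the sources used here. Counts, as the authors deposited them, are whole numbers per mature microRNA and hairpin. The smallest listed count was 2, and blanks were read as 0. A second, rescaled table was not used.

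Counts were analysed in edgeR 4.0.16 (R 4.3.3) with TMM scaling, the filterByExpr filter (608 of 1906 names kept) and 1 quasi-likelihood fit of 12 libraries with a coefficient per group. The difference and both responses were tested, each adjusted by the Benjamini-Hochberg method over 608 microRNAs, with calls at an adjusted p under 0.05. Standard errors come from the fitted variance, never below the Poisson variance; none is given where a group held no counts. Libraries held 2665109 to 6525388 counts without molecular identifiers, so floors cover counting error only. The 22 alternatives include limma 3.58.1 and DESeq2 1.42.0. The fit was tested on simulated data with known differences of either sign. It recovered 36% of 100 differences of 1 and 72% of 100 differences of 2 (log2). There were 4 false calls.

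RefSeq gave a mature sequence for 540 of the 608 tested and 11 of the 11 called. Host genes come from GENCODE on GRCh38. MicroRNAs were named by level and size of difference (calls of at least 10 CPM in a group, the most abundant calls, opposite calls, calls held without any 1 library, the 5 most abundant of all, and the 3 most abundant of each list described), with the other arm of a named hairpin. The members and lists were chosen with earlier results of these data known.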

Additional observations from a re-analysis of the deposited data

Results flagged for a closer look

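In 11 microRNAs the SAHA responses of AGS and HGC-27 differed by a test of the difference itself (edgeR's quasi-likelihood test, adjusted over 608 microRNAs). The differences, AGS minus HGC-27 on the log2 scale, were -1.95 for miR-7-5p, -4.11 for miR-195-3p, -6.10 for miR-216b-5p, -1.10 for miR-27a-5p and -1.13 for miR-19a-3p. They were 1.71 for miR-1247-3p, 1.30 for miR-1247-5p, 1.45 for miR-135b-3p, 1.07 for miR-516a-5p, 0.51 for miR-30a-3p and 1.85 for miR-676-3p. The value for miR-216b-5p is a fitted one against a group at 0 and is no bound. The gap of single outlying libraries to the rest of their group was not tested, since each group held 3.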

How the results depend on the processing

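All 11 called differences kept their sign in 22 alternatives. miR-7-5p was called in each of the 22. The count of 11 called differences became 19 with predicted entries fitted together, 31 with DESeq2 (the 11 among them; 129 adjusted p-values not given), and 7 to 27 with 1 library left out. It was 7 when HGC-27 DMSO 2, HGC-27 SAHA 2 or AGS SAHA 1 was left out, and 27 without AGS DMSO 3. The 161 calls in AGS became 104 to 176 with 1 library left out (104 without AGS SAHA 1, 106 without AGS SAHA 2). Plain totals gave 116 higher and 37 lower in AGS, and 144 higher and 79 lower in HGC-27. With hairpins summed, 4 called differences were positive and 11 negative; with predicted entries, 5 and 14. Leaving out the 3 libraries lowest on the third component, an alternative chosen after seeing the data, gave 4 positive and 7 negative.

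Deviations from the group means of same-numbered SAHA and DMSO libraries had correlations of 0.002, 0.036 and -0.088 in AGS. In HGC-27 they were -0.321, -0.008 and 0.075. Pairs of unlike number ran from -0.12 to 0.099 in AGS and from -0.307 to 0.378 in HGC-27. With 3 libraries a group, these values cannot show whether equal numbers mark a shared culture. A replicate block within each line gave 1 called difference, 92 calls in AGS and 164 in HGC-27, and a block shared by both lines gave 6 called differences.

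Among 82 named microRNAs and their alternatives, 1691 of 1797 comparisons kept their side of the threshold, 62 lost a call, 44 gained one, and none reversed a call; 127 changed sign with no call under either setting. Depth limits the microRNAs with few counts, such as miR-195-3p and miR-216b-5p.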

Other observations

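In 2 clusters on the X chromosome that are best known from the testis and epididymis, members rose with SAHA in both lines. The cluster of miR-888, miR-891 and miR-892 had 10 names in the table and 3 tested, of which 3 rose in AGS and 3 in HGC-27. The cluster of miR-506 to miR-514 had 13 names and 4 tested, of which 2 rose in AGS and 2 in HGC-27. Of all 608 microRNAs, 15% rose in AGS and 21.7% in HGC-27. Members absent with DMSO, such as miR-891a-5p, could pass the count filter only through SAHA libraries. A rise among the tested members was thus partly set by the filter. miR-891a-5p had 24.9, 20.3 and 27.4 CPM in AGS SAHA, against 0 in all 3 AGS DMSO libraries. In HGC-27 it had 12.5, 8.61 and 11.1 CPM with SAHA, against 0 in all 3 DMSO libraries, and no difference between the lines was called (adjusted p 1). miR-509-3-5p had 52.2, 37.3 and 72.6 CPM in AGS SAHA, against 13.9, 25.7 and 11.2 in AGS DMSO. Its HGC-27 levels were 2.19, 0.718 and 2.95 CPM with SAHA, against 0 in all 3 DMSO libraries, with an adjusted p of 0.103 for the difference. In both microRNAs the treated libraries lay above the untreated ones in each line.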
